A study of Rattus norvegicus with 19 samples.

Results

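The genes described here encode the subunits of potassium channels, taken as the rows of the deposited FPKM table (fragments scaled by transcript length and library total) whose symbol begins with Kcn and that reached an FPKM of 1 or more in at least 4 of the 19 libraries. Of 90 such symbols in the table of 15597 genes, 70 met that rule. The same level filter left 11887 genes for testing, so these 70 genes were selected by name and level and not by any comparison. The libraries came from primary cultures of ventral spinal cord of embryonic day 14 Sprague-Dawley rats, and in the labels the age of the cultures is given as 7 days in vitro in one field and as 4 days in another. All recipient cells were from rats with no transgene. Control cultures (n = 5) were compared with cultures given inorganic polyphosphate (polyP, a chain of linked phosphates) at 100 μM for 90 min (n = 5). The other groups received medium conditioned by mouse spinal cord astrocytes, either carrying the G93A mutant human SOD1 gene of familial amyotrophic lateral sclerosis (mutSOD1-ACM, n = 5) or carrying wild-type human SOD1 (wtSOD1-ACM, n = 4). Both conditioned media were labelled as given for 90 min. The libraries were poly(A)-selected and, by the labels, came from independent cultures.

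Potassium channels let potassium leave or enter the cell, and in neurons they set the resting potential, end the action potential and fix how often a cell can fire. Voltage-gated alpha subunits form pores that open on depolarization, modifier alpha subunits carry no current alone and join other pores, and auxiliary subunits change the gating or surface number of other pores. Calcium- and sodium-activated channels follow firing with a pause, inward rectifiers hold the cell near rest, and two-pore-domain channels give a standing leak. In the spinal cord such channels shape the firing of motor neurons and interneurons, and glia take up potassium through inward rectifiers.

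By a clustering of all other tested genes, the libraries fell into 2 sets that held members of every group. Set 1 had 11 libraries (control replicates 1 to 3, polyP 1 to 3, wtSOD1-ACM 1 and 2, mutSOD1-ACM 1 to 3), with the myelin gene Mbp at 169 to 372 FPKM, and set 2 had the other 8, with Mbp at 6.54 to 9.62 FPKM. A finer division split set 1 into a class of 5 libraries (control 1, polyP 1 and 2, mutSOD1-ACM 1 and 2) and a class of 6. Neuronal markers were high throughout, with 10 markers summing to 1004 to 1794 FPKM, but motor neuron markers were low. Of the 6 listed, Isl1 reached at most 0.45 FPKM and Slc5a7 at most 0.69, and Mnx1 was listed at 0 in 3 libraries and reached at most 0.14. Chat stood at 0.34 to 1.34 FPKM, Slc18a3 at 0.46 to 1.72 and Prph at 1.96 to 5.02. Within-group Pearson correlations of log2 values across genes were 0.956 to 0.997, and relative depths recovered from the steps of low values were 0.762 to 1.35. Because these are bulk libraries, fewer cells of a type and less RNA per cell cannot be told apart.

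Every one of the 6 structural classes was present in these cultures. The rule kept 23 of 28 voltage-gated alpha subunits, 7 of 10 modifier alpha subunits, 11 of 13 auxiliary subunits, 9 of 11 calcium- and sodium-activated channel subunits, 11 of 15 inward rectifiers and 9 of 13 leak channels. FPKM is scaled per transcript length, so levels can be set side by side between genes. The highest mean over 19 libraries belonged to Kcne5, a single-pass auxiliary subunit of the MinK-related family, at 29.4 FPKM (12.05 to 46.68). Kcnd3, a pore of the fast A-type current, averaged 19.8 FPKM (16.08 to 22.75). Kcnh2, the ether-a-go-go-related pore, averaged 19.4 FPKM (13.54 to 27.23). These 3 ranges overlap, so the order among them does not exceed their spread over libraries. The leak channel Kcnk3, also known as TASK-1, averaged 18.6 FPKM, and the calcium-activated channel subunit Kcnmb4 averaged 19.1 FPKM.

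Low members lay close to the threshold. Just inside it were Kcns2 with 5 libraries at 1 FPKM or more (0.52 to 1.18 FPKM), Kcnk6 with 8 (0.46 to 2.54) and Kcng3 with 9 (0.55 to 1.71). Just outside were Kcnk13 with 3 libraries (0.36 to 1.66), Kcna5, whose highest library was 0.97, and Kcnh3, whose highest was 0.82. The other 17 genes left out included the cardiac pore Kcnq1 and the intermediate-conductance channel Kcnn4.

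**Figure D1:**
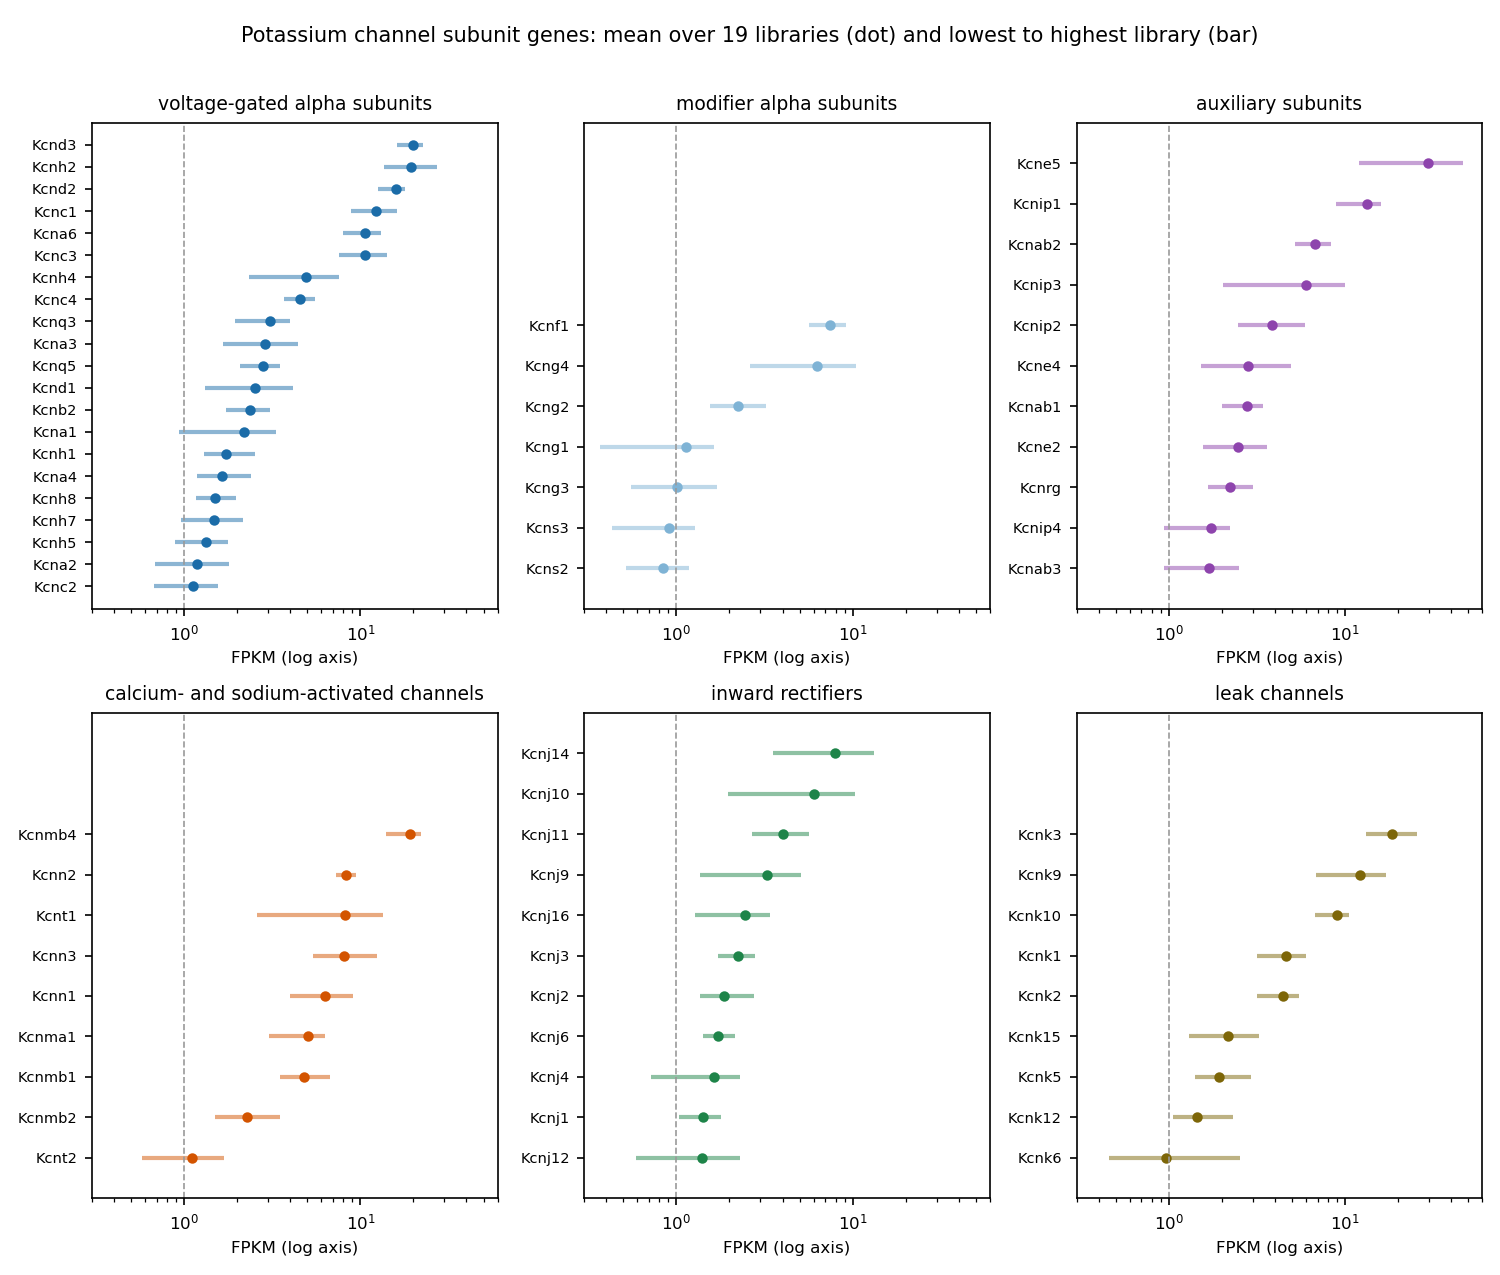
Mean FPKM over 19 libraries (dot) and the range from the lowest to the highest library (bar) for 68 of the 70 genes, on a log axis, in 6 panels by structural class, with a dashed line at 1 FPKM. Kcne5 has the highest mean (29.4 FPKM) and a range from 12.05 to 46.68, while Kcns2 has the lowest mean (0.835 FPKM).

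The comparison of polyP with control asked which channel genes differ after a 90 min exposure. Of 70 genes, 8 fell and 1 rose (limma, adjusted p under 0.05). The genes that fell included the inward rectifier Kcnj4, the voltage-gated pores Kcna6 and Kcnh4, the sodium-activated pore Kcnt1 and the leak channels Kcnk3, Kcnk9 and Kcnk10. The gene that rose was Kcnmb4, an auxiliary subunit of the large-conductance calcium-activated channel. The 8 genes are 11.4% of the 70, beside 8.77% of all tested genes that fell, and the 1 gene is 1.43%, beside 23% of all tested genes that rose and 31.8% called in either direction. In this fit by group alone the share that fell was near the background, and the share that rose was below it. The median log2 change, the difference of mean log2(FPKM + 1), was -0.15 over the 70 genes and 0.04 over all tested genes. Below 0 were 50 of 70 genes (71.4%), beside 44.3% of all tested genes. FPKM summed over the 70 genes was 373 ± 10.4 with polyP (SD, n = 5) and 408 ± 29.0 in control (SD, n = 5), with 357.37 to 385.9 against 379.74 to 447.62.

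Scaling and culture set changed the counts. FPKM summed over all genes of the table was 502342 ± 12154 with polyP (SD, n = 5) and 464188 ± 13827 in control (SD, n = 5). Scaling all libraries to an equal sum moved the median of all tested genes by -0.10 on the log2 scale, turned the share of calls that were higher from 72.4% to 45.7%, and called 18 genes of the 70 lower and 0 higher, beside 14% of all tested genes lower. Median-of-ratios scaling, under which 53.7% of calls were higher, called 17 lower and 0 higher, beside 13% lower. Quantile normalization, under which 67.7% of calls were higher, called 8 lower and 1 higher, beside 1105 and 2320 of the 11887 tested genes. There 40 of the 70 genes were below 0, and their median was -0.06, beside 0.04 over all tested genes. With culture set as a term in the fit, 27 genes were called lower and 4 higher, beside 19.4% and 32.7% of all tested genes, and all 9 calls were shared. Fitted on their own, set 1 gave 5 calls, all lower, beside 5.48% of all tested genes lower, and set 2 gave 25, of which 20 were lower, beside 18%. Under equal-sum and median-of-ratios scaling, with culture set and in set 2, the share of the 70 called lower was above that of all tested genes. In set 1 it was near it. Without control replicate 4 the count was 5, all lower.

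Some markers of other cells were called with polyP. Both tested endothelial and mural cell markers fell, and the summed level of the 6 listed markers was 20.33 to 27.66 FPKM with polyP and 28.08 to 38.77 in control. Of 4 fibroblast markers 1 fell, with sums of 312.79 to 621.61 against 489.36 to 806.14 FPKM. None of 10 neuronal markers was called, with sums of 1372.33 to 1794.26 against 1003.77 to 1649.12 FPKM. Microglial markers (7 tested, 0 called) summed to 33.81 to 115.13 FPKM with polyP and to 32.1 to 372.36 in control. Of 7 oligodendrocyte markers 1 fell, and 1 of 7 astrocyte markers and 1 of 2 tested muscle markers rose. Of all tested genes 8.77% fell and 23% rose. The part of these cells in the channel results was not tested.

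**Figure D2:**
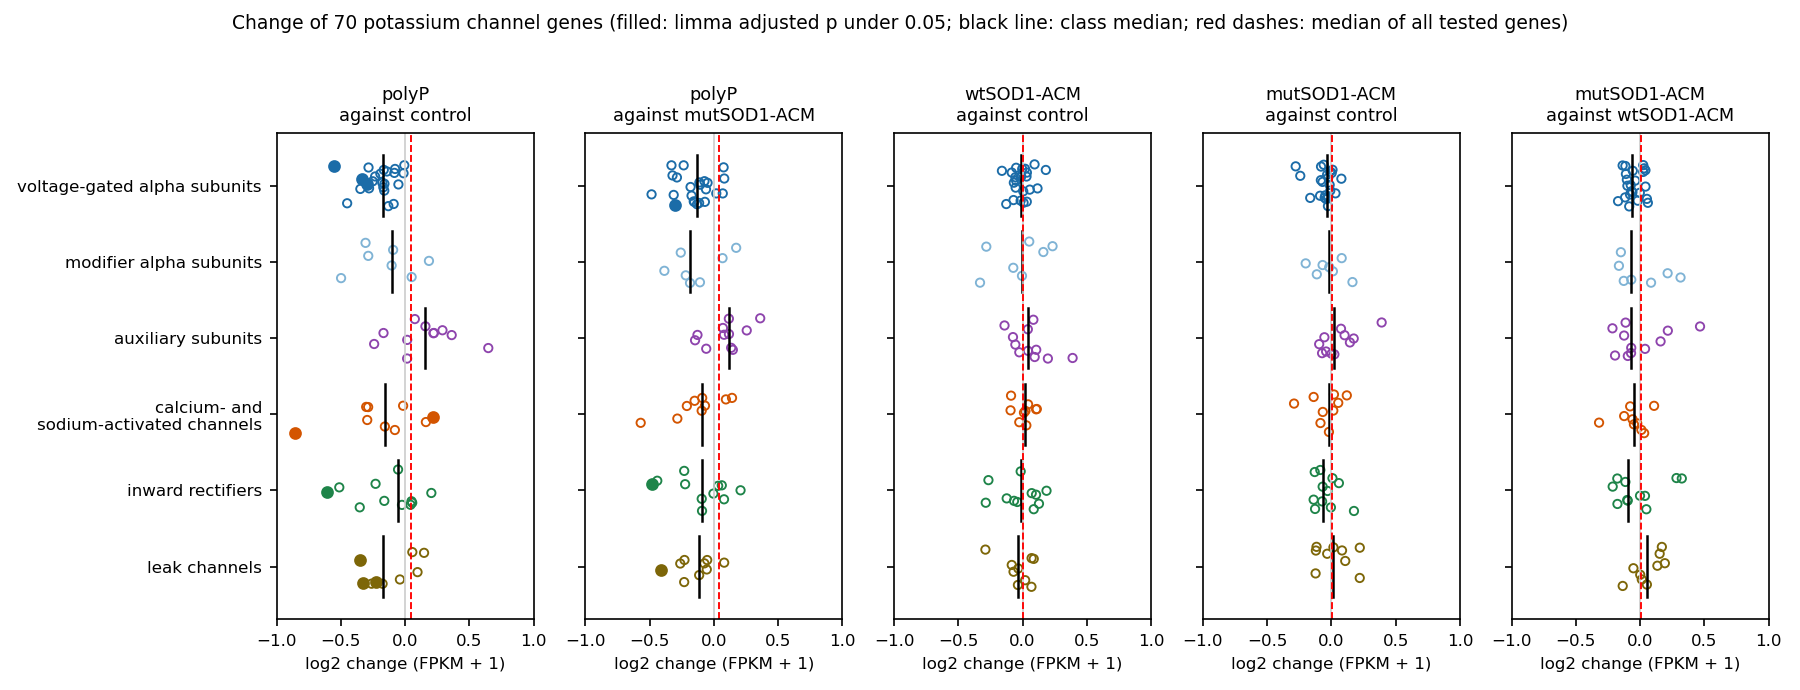
Log2 change of each of the 70 genes (points, filled where limma's adjusted p was under 0.05) in the 5 comparisons, by structural class, with the class median (black line) and the median of all tested genes (red dashes). With polyP against control all 23 voltage-gated alpha subunits lie below 0 and 9 of 11 auxiliary subunits lie above it, and no filled point appears in the 3 comparisons that involve conditioned medium and no polyP.

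All 23 voltage-gated alpha subunits had a log2 change below 0 with polyP, with a median of -0.17. Of them 3 (13%) fell, beside 8.77% of all tested genes. Under equal-sum and median-of-ratios scaling 23 were below 0, and under quantile normalization 18 were. Within the sets, 21 were below 0 in both. With culture set in the fit 10 of 23 were called lower and 0 higher, beside 19.4% and 32.7% of all tested genes.

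Kcna6, a delayed rectifier of the Kv1 family, read 12.45, 9.27, 10.15, 13.14 and 12.55 FPKM in control and 9.89, 9.57, 8.61, 7.95 and 8.38 with polyP. The sole control below any polyP library is replicate 2, at 9.27. Its log2 change was -0.33 (SE 0.09, adjusted p = 0.0107 by limma), at -0.16 in set 1 and -0.60 in set 2.

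Kcnh4, an ether-a-go-go-like pore, read 4.72, 4.62, 4.53, 7.55 and 6.12 FPKM in control and 2.60, 2.32, 3.81, 4.11 and 4.42 with polyP. The groups do not overlap, and in both groups the last 2 libraries, those of set 2, are high. Its log2 change was -0.55 (SE 0.20, adjusted p = 0.0389 by limma), with -0.54 in set 1 and -0.57 in set 2. Within set 1 it was -0.73 in the class of 5 libraries, which has 1 control, and -0.21 in the class of 6, which has 1 polyP library. The call was lost without control replicate 4 or 5 or polyP replicate 1 or 2 (adjusted p up to 0.109), under quantile normalization (adjusted p = 0.0662) and with no filter on low genes (adjusted p = 0.0532).

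Other leading voltage-gated pores did not pass in the fit by group alone. Kcnd3 averaged 17.6 ± 2.21 FPKM with polyP and 20.8 ± 1.83 in control (SD, n = 5 each), a log2 change of -0.23 (adjusted p = 0.0558 by limma, 0.0303 with culture set as a term). It passed under each of the 3 scalings (adjusted p 0.0163 to 0.0253). Kcnc1, a Kv3 pore for fast spiking, read 10.38, 8.86, 10.02, 10.35 and 10.24 FPKM with polyP and 12.51, 10.46, 11.69, 16.17 and 14.62 in control. Its groups do not overlap, and its log2 change of -0.35 had an adjusted p of 0.0575 by limma and 0.00175 with culture set as a term. The adjusted p of Kcnc1 was 0.0217 under equal-sum scaling and 0.0228 under median-of-ratios scaling, but 0.0513 under quantile normalization. Kcnh2, whose mean is higher in set 2, had a log2 change of -0.25 (adjusted p = 0.302 by limma, 0.0021 with culture set as a term).

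None of the 7 modifier alpha subunits passed the test, beside 31.8% of all tested genes called in either direction. Below 0 lay 5 of them, with a median of -0.10. Kcnf1 (Kv5.1), the highest of the 7 over all 19 libraries though below Kcng4 in set 2, had a log2 change of -0.09 (adjusted p = 0.491 by limma). Kcng4, a silent partner of other pores, averaged 4.62 ± 1.67 FPKM with polyP and 7.00 ± 2.67 in control (SD, n = 5 each), a log2 change of -0.50 (adjusted p = 0.208 by limma, 0.00546 with culture set as a term). Kcns3, a low gene of the Kv9 family, had one of 0.19 (adjusted p = 0.249 by limma).

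Of the auxiliary subunits 9 of 11 were above 0 with polyP, with a median of 0.16, and none passed the test. Below 0 were 18.2% of them, beside 44.3% of all tested genes. With culture set in the fit 3 of 11 were called higher and 1 lower, beside 32.7% and 19.4% of all tested genes. In set 2 on its own 4 were called higher and 1 lower, beside 3336 and 2144 of the 11887 tested genes. Under quantile normalization 1 was called higher, beside 2320 of the 11887. Under equal-sum scaling 6 were above 0, under median-of-ratios scaling 7 and under quantile normalization 9. Kcne5 read 43.80, 43.64, 23.78, 35.33 and 38.30 FPKM with polyP and 38.86, 19.20, 12.05, 23.00 and 28.82 in control. The groups overlap, and the gene followed the culture classes: it was 38.86 to 46.68 FPKM in the class of 5 libraries, 12.05 to 23.78 in the class of 6 and 22.34 to 38.3 in set 2. Its log2 change of 0.65 had an SE of 0.31 and an adjusted p of 0.127 by limma, which became 0.106 with culture set and 0.0126 with the 3 classes as a term. Kcnip1, a calcium-binding partner of Kv4 pores, had a log2 change of 0.16 (adjusted p = 0.274 by limma). Kcnab2, a cytoplasmic beta subunit of Kv1 pores, stood at 0.02 (adjusted p = 0.92), and Kcnrg, a cytosolic regulator of Kv assembly, at 0.08 (adjusted p = 0.622).

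Of the 9 calcium- and sodium-activated channel subunits 1 fell and 1 rose (11.1% each), beside 8.77% and 23% of all tested genes. Kcnt1, the sodium-activated pore also called Slack, read 7.18, 9.05, 8.00, 13.37 and 11.39 FPKM in control and 3.47, 2.60, 6.76, 5.87 and 6.82 with polyP. The groups do not overlap. The means were 9.80 ± 2.55 and 5.10 ± 1.95 FPKM (SD, n = 5 each), a log2 change of -0.86 (SE 0.25, adjusted p = 0.0146 by limma), with -0.86 in each set, and -1.03 and -0.29 in the classes of 5 and 6 libraries. Kcnt2, its close relative, was named after its values were seen because its groups also do not overlap. It read 0.77, 0.58, 1.05, 1.04 and 0.76 FPKM with polyP and 1.07, 1.18, 1.06, 1.54 and 1.42 in control. Kcnt2 did not pass (adjusted p = 0.0691 by limma), nor did it under quantile normalization (0.271). It passed under equal-sum scaling (0.0438), under median-of-ratios scaling (0.0416) and with culture set as a term (0.0117).

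Kcnmb4 read 20.94, 13.93, 18.42, 17.15 and 17.98 FPKM in control and 19.04, 21.18, 20.04, 22.17 and 20.21 with polyP. Control replicate 1 lies inside the polyP range and control replicate 2 lies far below it. Its log2 change was 0.21 (SE 0.08, adjusted p = 0.0452 by limma). That call was lost in 13 of the 19 fits that left out 1 library (adjusted p up to 0.123), under equal-sum scaling (0.11, adjusted p = 0.277), under median-of-ratios scaling (adjusted p = 0.161), under quantile normalization (adjusted p = 0.0695) and with no filter (adjusted p = 0.0573), and within the class of 5 libraries its change was -0.06. Kcnma1, the pore that Kcnmb4 joins, had a log2 change of -0.16 (adjusted p = 0.409 by limma), and the small-conductance pore Kcnn2 stood at 8.07 ± 0.734 against 8.16 ± 0.564 FPKM (SD, n = 5 each).

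Among 11 inward rectifiers 1 fell (9.09%), beside 8.77% of all tested genes. Of the 11, 7 were below 0 with a median of -0.05, which was 0.03 under quantile normalization. Kcnj4, the strong rectifier Kir2.3, read 1.89, 2.22, 1.67, 1.84 and 1.98 FPKM in control and 0.89, 1.00, 1.18, 0.72 and 0.82 with polyP. The groups do not overlap. The means were 1.92 ± 0.202 and 0.922 ± 0.177 FPKM (SD, n = 5 each), a log2 change of -0.61 (SE 0.10, adjusted p = 0.000355 by limma), and -0.99 with a pseudocount of 0.1. It was -0.53 in set 1 and -0.72 in set 2, and the call held in each fit that left out 1 library (adjusted p up to 0.00139). Kcnj14 (Kir2.4), with the highest mean of the class over all 19 libraries though below Kcnj10 in set 1 and with polyP, averaged 5.78 ± 1.97 FPKM with polyP and 8.64 ± 2.77 in control (SD, n = 5 each), a log2 change of -0.51 (adjusted p = 0.149 by limma, 0.00106 with culture set as a term).

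Among 9 leak channels 3 fell (33.3%), beside 8.77% of all tested genes. Kcnk3 and Kcnk9 are the acid-sensitive TASK channels, which hold neurons near rest. Kcnk3 read 25.60, 18.99, 18.05, 17.05 and 16.86 FPKM in control and 15.25, 15.14, 17.25, 13.12 and 14.33 with polyP. Control replicate 1 is far above the others, and polyP replicate 3 is the sole polyP library above the lowest 2 controls. The log2 change of Kcnk3 was -0.33 (SE 0.09, adjusted p = 0.0106 by limma), -0.36 in set 1 and -0.29 in set 2. Within set 1 it was -0.72 in the class of 5 libraries, whose sole control is replicate 1, and -0.10 in the class of 6, which has 1 polyP library. The call held in each fit that left out 1 library (adjusted p up to 0.0342).

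Kcnk9 read 17.18, 11.93, 11.87, 14.59 and 12.05 FPKM in control and 12.79, 10.35, 10.98, 11.27 and 6.86 with polyP, with polyP replicate 1 above 3 of the controls. Its log2 change was -0.35 (SE 0.12, adjusted p = 0.0358 by limma), and the call was lost without control replicate 1 or 4 or polyP replicate 2 or 5 (adjusted p up to 0.0897). Kcnk10, the mechanosensitive channel TREK-2, read 9.93, 10.15, 8.82, 10.05 and 8.94 FPKM in control and 8.43, 8.29, 8.83, 7.91 and 6.73 with polyP. The groups meet at 8.82 and 8.83. Its log2 change was -0.23 (SE 0.07, adjusted p = 0.023 by limma), lost without control replicate 2 or 4 or polyP replicate 5 (adjusted p up to 0.0677).

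Counted by overlap, 5 of 70 genes were lower with polyP with no overlap between groups (Kcnj4, Kcnt1, Kcnh4, Kcnc1 and Kcnt2), beside 4.31% of all tested genes, and 0 were higher, beside 14.6%.

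**Figure D3:**
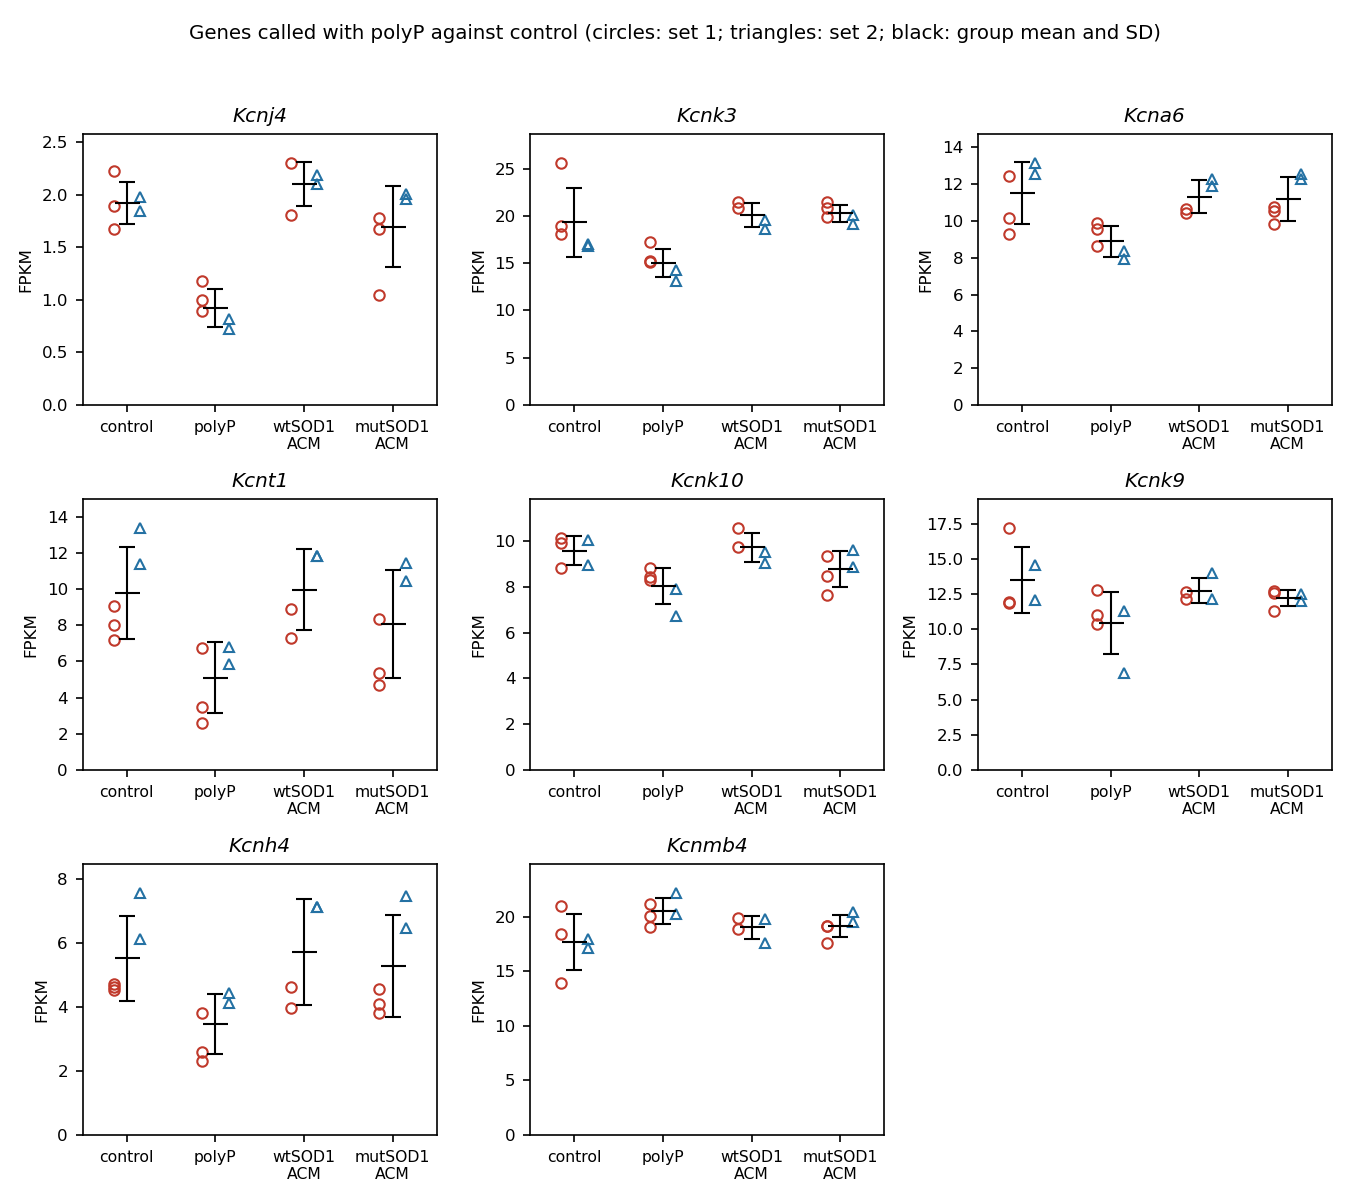
FPKM in each library of the 4 groups for 8 genes called with polyP against control (y axis from 0), with circles for set 1, triangles for set 2, and the group mean and SD in black. For Kcnj4, Kcnt1 and Kcnh4 the 5 polyP libraries lie below the 5 control libraries, and for Kcnmb4 the groups overlap.

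The upstream sequences of 3 called genes are shown to set the gene with the smallest adjusted p and a voltage-gated pore that fell beside the gene that rose. They are the 250 bases before the annotated start in RefSeq (build GRCr8, all 3 on the minus strand), written 5′ to 3′ on the gene's strand, with matches to 3 short motifs in capitals. Kcnj4 lies at chr7:112954548-112954797, Kcna6 at chr4:161262353-161262602 and Kcnmb4 at chr7:54005102-54005351.
Kcnj4: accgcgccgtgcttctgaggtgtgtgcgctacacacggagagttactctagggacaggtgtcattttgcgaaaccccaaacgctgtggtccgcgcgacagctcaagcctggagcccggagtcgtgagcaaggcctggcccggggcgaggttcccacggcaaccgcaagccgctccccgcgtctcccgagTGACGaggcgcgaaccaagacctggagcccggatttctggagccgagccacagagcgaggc
Kcna6: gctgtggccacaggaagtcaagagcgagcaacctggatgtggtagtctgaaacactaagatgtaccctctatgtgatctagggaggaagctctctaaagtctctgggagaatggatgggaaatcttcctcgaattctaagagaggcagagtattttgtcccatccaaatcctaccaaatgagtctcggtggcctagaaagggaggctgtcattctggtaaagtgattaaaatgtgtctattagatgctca
Kcnmb4: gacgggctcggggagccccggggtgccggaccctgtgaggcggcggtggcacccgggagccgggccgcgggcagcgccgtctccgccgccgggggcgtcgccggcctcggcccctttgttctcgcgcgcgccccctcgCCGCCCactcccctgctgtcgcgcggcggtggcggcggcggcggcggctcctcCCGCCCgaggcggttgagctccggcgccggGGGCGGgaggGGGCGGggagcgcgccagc
Each motif was searched on both strands. The core of a cyclic-AMP response element is TGACG. A GC box, bound by factors of the Sp family, is spelled GGGCGG. The TATA box of focused promoters was searched as TATAAA. The Kcnj4 window holds 1 TGACG, starting 61 bases before the start, the Kcna6 window holds none of the 3 motifs, and the Kcnmb4 window holds 4 GC boxes. Kcnmb4 is 84.4% G and C in this window, Kcnj4 65.6% and Kcna6 45.6%, beside a median of 51.2% over all windows. RefSeq windows were matched to 46 of the 70 genes, 52 windows in all. TGACG was in 17.3% of these and 18.2% of all 33469 windows, the GC box in 50% and 30.5%, and the TATA box in 1.92% and 12.9%. The 33469 windows belong to 27457 genes taken without the level filter that the 70 genes passed, so these shares are not matched for level. A match describes letters and is neither a site nor a cause.

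Genes that work with potassium channels were described from lists of partners and transporters. Of 21 tested Kv partners 6 fell and 5 rose with polyP, beside 8.77% of all tested genes that fell and 23% that rose. Dpp6, which speeds Kv4 gating, averaged 43.4 ± 2.58 FPKM with polyP and 56.7 ± 2.86 in control (SD, n = 5 each), a log2 change of -0.38 (adjusted p = 0.000215 by limma). Ank3, the ankyrin that anchors channels at the axon initial segment, changed by -0.40 (adjusted p = 0.00101), and Cntn2, a cell adhesion protein of the juxtaparanode, by -0.45 (adjusted p = 0.00698). Vapa, which ties channel clusters to the endoplasmic reticulum, rose by 0.32 (adjusted p = 0.00151), at 175 ± 11.3 against 140 ± 14.3 FPKM (SD, n = 5 each).

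Carriers of potassium were also tested. Of 11 tested genes of the sodium-potassium pump 3 fell and 0 rose, beside 8.77% and 23% of all tested genes. Atp1b1, a beta subunit, averaged 154 ± 10.1 FPKM with polyP and 187 ± 21.0 in control (SD, n = 5 each), a log2 change of -0.28 (adjusted p = 0.00479 by limma).

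Of 8 potassium-coupled cotransporters 6 fell and 0 rose, beside 8.77% and 23% of all tested genes. Slc12a5, the neuronal potassium-chloride cotransporter KCC2 that keeps chloride low, averaged 29.1 ± 2.44 FPKM with polyP and 49.6 ± 10.7 in control (SD, n = 5 each), a log2 change of -0.73 (adjusted p = 0.00307 by limma). Its relatives Slc12a4 and Slc12a7 changed by -0.77 (adjusted p = 0.0049) and -0.49 (adjusted p = 0.013). The sodium-calcium-potassium exchanger Slc24a2 changed by -0.27 (adjusted p = 0.0129), which under quantile normalization was -0.18 (adjusted p = 0.0733).

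Of 4 tested genes of the hyperpolarization-activated channels and their partner 2 fell, beside 8.77% of all tested genes. Hcn4 changed by -0.29 (adjusted p = 0.0096 by limma) and Hcn3 by -0.25 (adjusted p = 0.0338), the latter lost without control replicate 1, 4 or 5 or polyP replicate 1, 2 or 3 (adjusted p up to 0.0887). Abcc8, the sulfonylurea receptor of the ATP-sensitive channel, changed by -0.65 (adjusted p = 0.0341), lost without control replicate 2, 4 or 5 or polyP replicate 1 or 2 (adjusted p up to 0.101). It was 1 of 2 tested genes of its list.

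The comparison of polyP with mutSOD1-ACM set the 2 exposures side by side. Of the 70 genes 3 fell and 0 rose, which is 4.29% beside 4.9% of all tested genes that fell, 14.8% that rose and 19.7% in either direction. The median log2 change was -0.10 over the 70 genes and 0.04 over all tested genes, and 49 of 70 were below 0. Here too both tested endothelial and mural cell markers (Flt1 and Pdgfrb) and 1 of 4 fibroblast markers fell, and 1 of 7 astrocyte markers rose. Same-numbered libraries of these groups deviated together, but they also shared a culture class, so pairing by number cannot be told from shared class. With the replicate number as a block 12 genes fell and 0 rose, beside 10.1% of all tested genes that fell and 31.7% in either direction. With that block the 3 calls of the unblocked fit held. With culture set as a term 14 fell and 1 rose, beside 10.8% and 25.2% of all tested genes. Set 1 on its own gave 0 calls, beside 0.976% of all tested genes in either direction, and set 2 on its own gave 24, of which 22 were lower, beside 15.4%. Without mutSOD1-ACM replicate 1 the count was 5, and under equal-sum scaling 5 fell, beside 6.28%. The share of calls that were higher among all tested genes was 75.1%, and 51.3% under equal-sum scaling, 50.3% under median-of-ratios scaling and 64.6% under quantile normalization.

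Kcnk3 read 19.91, 20.83, 21.45, 19.10 and 20.14 FPKM with mutSOD1-ACM, above all 5 polyP libraries given for it earlier (13.12 to 17.25). Its log2 change was -0.41 (SE 0.09, adjusted p = 0.00624 by limma), -0.37 in set 1 and -0.49 in set 2. Kcnj4 read 1.05, 1.78, 1.67, 1.96 and 2.01 FPKM with mutSOD1-ACM, of which the first lies within the polyP range, and changed by -0.48 (SE 0.10, adjusted p = 0.00501), at -0.29 in set 1 and -0.75 in set 2. Kcna6 read 10.73, 9.82, 10.54, 12.29 and 12.53 FPKM with mutSOD1-ACM, overlapping polyP only at 9.82 and 9.89. Its change of -0.30 (SE 0.09, adjusted p = 0.0311) was lost without polyP replicate 3, 4 or 5 or mutSOD1-ACM replicate 4 or 5 (adjusted p up to 0.0834).

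The partner lists were also counted in this comparison, beside 4.9% of all tested genes that fell and 14.8% that rose. Of 21 Kv partners 3 fell (Dpp6 by 0.26, Cntn2 by 0.36 and Ank3 by 0.24 on the log2 scale). Of 11 pump genes 3 fell, among them Atp1b1 (-0.30, adjusted p = 0.00744 by limma). The calls of Atp1b1 and Dpp6 held in each fit that left out 1 library, while those of Cntn2 and Ank3 were lost with no filter and in 7 and 6 such fits, among them those without polyP replicate 2 or 5 or mutSOD1-ACM replicate 4 or 5. Of 8 cotransporters 2 fell, Slc12a5 (-0.56, adjusted p = 0.0254) and Slc12a4 (-0.55, adjusted p = 0.0479), and of 4 hyperpolarization-activated channel genes Hcn4 (-0.28, adjusted p = 0.0219) and Hcn3 (-0.28, adjusted p = 0.0305). These 4 calls were also lost in some such fits, in each case among others without polyP replicate 2 or mutSOD1-ACM replicate 4, with adjusted p up to 0.0741, 0.13, 0.0566 and 0.086, and that of Slc12a4 was lost with no filter. None rose.

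The comparisons of conditioned medium with control asked whether factors released by astrocytes alter channel genes. With mutSOD1-ACM 0 of 70 genes were called by limma, beside 0.0168% of all tested genes, and 0 had an unadjusted p under 0.05. Log2 changes ran from -0.29 to 0.39, and the median SE was 0.12. The 4 genes with the smallest p were Kcnh7 (an ether-a-go-go-related pore, -0.24), Kcnk1 (the weak rectifier TWIK-1, 0.22), Kcnf1 (0.16) and Kcnk10 (-0.12), each with an adjusted p of 0.966 or more. Kcnk1, for example, read 5.82, 5.94, 4.88, 4.84 and 4.74 FPKM with mutSOD1-ACM and 5.99, 3.94, 3.16, 4.80 and 4.21 in control, and the groups overlap.

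With wtSOD1-ACM 0 of 70 genes were called by limma, beside 0.631% of all tested genes, and 5 had an unadjusted p under 0.05, 3 higher and 2 lower. Log2 changes ran from -0.33 to 0.39. Kcnip4, a calcium-binding partner of Kv4 pores, read 2.19, 2.24, 1.83 and 2.01 FPKM with wtSOD1-ACM and 1.83, 0.94, 1.64, 1.14 and 1.26 in control. The lowest wtSOD1-ACM library equals the highest control, and the log2 change of 0.39 had an adjusted p of 0.652 by limma. The modifiers Kcng1 (-0.33), Kcng2 (-0.28) and Kcnf1 (0.23) followed, each with an adjusted p of 0.95 or more.

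The comparison of mutSOD1-ACM with wtSOD1-ACM sets mutant against wild-type human SOD1 in the donor astrocytes. None of 70 genes was called by limma, beside 0.471% of all tested genes, and 1 had an unadjusted p under 0.05. That gene, Kcng1, had a log2 change of 0.31 (adjusted p = 0.852). Kcnj3, a G-protein-gated rectifier, read 2.47, 2.81, 2.48 and 2.46 FPKM with wtSOD1-ACM and 2.18, 2.43, 2.26, 1.83 and 2.04 with mutSOD1-ACM. Its groups do not overlap, as for 1.37% of all tested genes lower in that comparison, and its log2 change of -0.18 did not pass. In control Kcnj3 read 1.87 to 2.42 FPKM, also without overlap with wtSOD1-ACM, as for 1.14% of all tested genes higher there. That log2 change of 0.19 did not pass either. The Kcnj3 means were 2.15 FPKM with mutSOD1-ACM and 2.13 in control. Kcnj4 had a log2 change of -0.21 and Kcnj16, a partner of the glial rectifier Kcnj10, one of 0.32, and neither passed. In these 3 comparisons none of the partner genes was called.

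The 2 sets of cultures differed in several of these genes, given as a description because the sets were found in the same data. Kcnj10, the glial rectifier Kir4.1, had its lowest, median and highest set 1 libraries at 5.99, 8.48 and 10.30 FPKM and its set 2 libraries at 1.97 to 3.37, with means of 8.44 ± 1.16 (SD, n = 11) and 2.68 ± 0.51 (SD, n = 8). Kcnip3, a calcium sensor that binds Kv4 pores, ran from 6.30 to 10.03 FPKM in set 1 and from 2.04 to 4.27 in set 2. Kcnj12, the rectifier Kir2.2, ran from 1.60 to 2.29 and from 0.59 to 1.05 FPKM. Without overlap, 6 of 70 genes were higher in set 1 (these 3 and the voltage-gated pores Kcnq3, Kcnb2 and Kcna2), beside 5.51% of all tested genes.

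Lower in set 1 without overlap were 2 of 70 genes, beside 7.98% of all tested genes. Kcnj9, a G-protein-gated rectifier, ran from 1.36 to 3.31 FPKM in set 1 and from 3.62 to 5.08 in set 2, and the A-type pore Kcnd1 averaged 1.79 and 3.51 FPKM. Kcng4 (4.55 and 8.70 FPKM) and Kcnj14 (5.97 and 10.7 FPKM) had lower means in set 1, with overlap. Oligodendrocyte markers summed to 343.9 to 651.76 FPKM in set 1 and 52.07 to 71.98 in set 2, and astrocyte markers to 371.21 to 513.28 and 292.73 to 337.75. Sums of precursor markers (53.38 to 106.7 against 11.59 to 15.9 FPKM) and of microglial markers (48.13 to 372.36 against 27.72 to 37.75) were also higher in set 1 without overlap. The sum of the 6 motor neuron markers was lower (3.61 to 5 against 6.31 to 8.3), and Prph alone stood at 1.96 to 5.02 FPKM over all libraries. The ribosomal RNA gene Rn28s, which poly(A) selection should largely remove, stood at 2346 to 5176 FPKM in set 1 and at 284 to 584 in set 2. The part of these cells and of ribosomal RNA in the set 1 and set 2 levels was not tested.

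**Figure D4:**
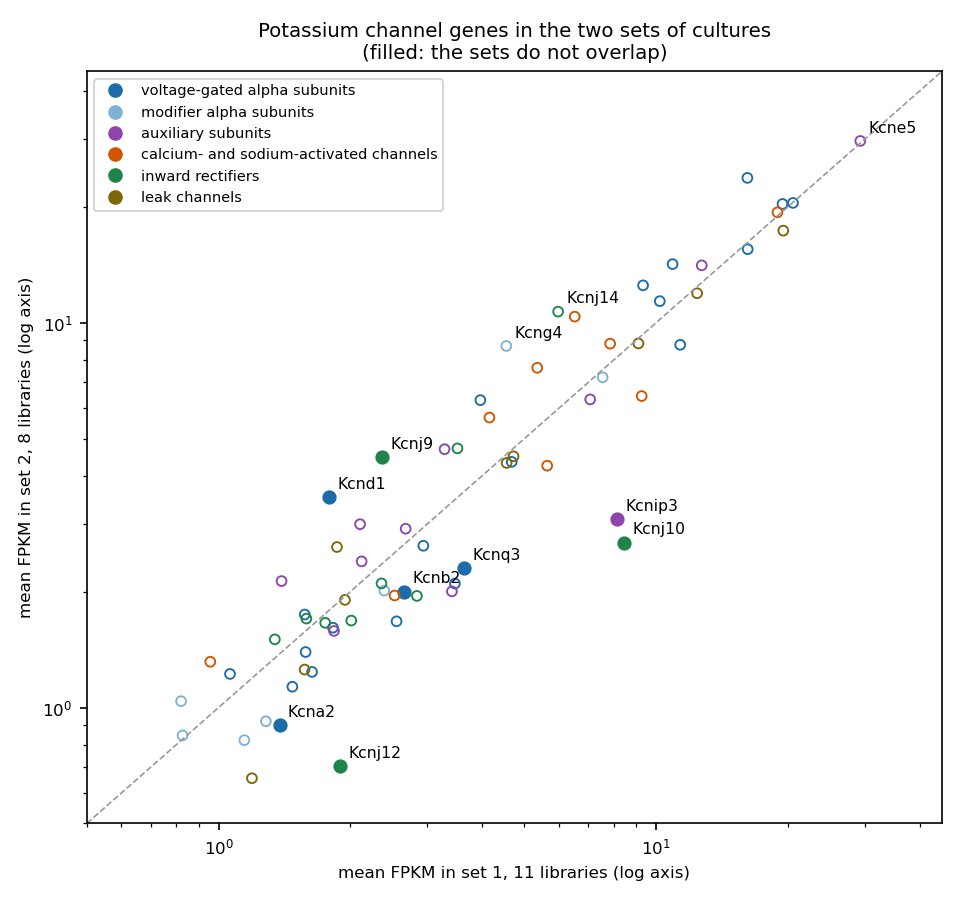
Mean FPKM of the 70 genes in set 1 (11 libraries, x) and set 2 (8 libraries, y) on log axes, coloured by class, with the line of equality dashed and the 8 genes whose sets do not overlap filled. Kcnj10 and Kcnip3 lie below the line, at 8.44 against 2.68 FPKM and 8.15 against 3.08 FPKM, and Kcnj9 and Kcnd1 lie above it.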

How the data were processed

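The authors deposited 1 table of FPKM values for 15597 genes and 19 libraries. The submitters' processing notes name HISAT and the build rn6. The sources used here do not give the quantifier or annotation. FPKM is scaled by length and library total, so absolute depth is unknown. Of 413 low values in 85 genes 96.9% were whole multiples of a common step within 0.1, but no counts were used. Values were transformed as log2(FPKM + 1), which understates changes of low genes, and tested with limma 3.58.1 (trended, robust empirical Bayes, two-sided, group only, R 4.3.3) in 1 fit of all libraries. Benjamini-Hochberg adjustment ran over the 11887 genes at 1 FPKM or more in at least 4 libraries, and calls used an adjusted p under 0.05. The p-values measure the spread between cultures.

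Comparisons with control share the same control libraries. Culture sets came from average-linkage clustering on 1 minus Pearson's r over tested genes outside the family. For polyP and mutSOD1-ACM, same-numbered libraries correlated in their deviations in all 5 pairs (r 0.688 to 0.764), and the pairing rests on this check of the data. Same-numbered libraries of these groups also shared a culture class, so the check cannot tell pairing by number from shared class. Alternatives were the pseudocount, the filter, 3 scalings, the replicate block, culture set, 3 culture classes (added after seeing the data), single sets and leaving out each library. Genes named were those called (at most 12 a comparison), the highest of each subfamily, the 4 smallest p where fewer than 3 were called, the 3 nearest the threshold on each side, the 6 with the largest set difference, and at most 4 called partners a list. The members and lists were chosen with earlier results of these data known. Some genes are not reported here; counts over the 70 genes, the lists and all tested genes include them.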

Additional observations from a re-analysis of the deposited data

Results flagged for a closer look

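Of 128 combinations of a named gene and a group, 6 held a library far from the others of its group, where chance alone marks about 1 in 20. In control, Kcnk3 was 25.6 FPKM in replicate 1 and 16.86 to 18.99 in the other 4. With polyP, Kcnd3 was 21.45 FPKM in replicate 3 and 16.08 to 17.51 in the others, Kcnc1 was 8.86 in replicate 2 and 10.02 to 10.38 in the others, and Kcnip4 was 1.19 in replicate 5 and 2 to 2.16 in the others. With wtSOD1-ACM, Kcnj3 was 2.81 FPKM in replicate 2 and 2.46 to 2.48 in the others, and Kcnd3 was 22.19 in replicate 4 and 20.34 to 20.54 in the others.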

How the results depend on the processing

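For polyP against control the count of 9 genes became 18 with equal summed FPKM, 17 with median-of-ratios scaling, 23 with the replicate block, 31 with culture set as a term, 30 with 3 culture classes as a term, 5 in set 1 only, 25 in set 2 only and 7 with no filter. Calls among all tested genes also changed, from 31.8% to 48.2% with the replicate block, 52.1% with culture set and 55.8% with 3 classes. Of the 11887, 1667 were lower and 1404 higher with equal summed FPKM, and 1545 and 1793 with median-of-ratios scaling. In set 1 only these were 651 and 1819, and in set 2 only 2144 and 3336. Leaving out 1 library gave 5 to 12 calls, the lowest without control replicate 4. For polyP against mutSOD1-ACM the count of 3 became 5 with equal summed FPKM, 12 with the replicate block, 15 with culture set as a term, 21 with 3 classes, 0 in set 1 only and 24 in set 2 only. Among all tested genes 19.7% became 31.7% with the replicate block, 36.1% with culture set, 45.5% with 3 classes and 0.976% in set 1 only. With equal summed FPKM 746 of the 11887 were lower and 787 higher, and in set 2 only 1836 and 2693. Leaving out 1 library gave 2 to 5, the highest without mutSOD1-ACM replicate 1. The causes were not tested. In the comparisons other than polyP against mutSOD1-ACM no pairing by replicate number was assumed (r from -0.725 to 0.791, with at least 1 pair at or under 0.1 in each). Each pair at or under 0.1 joined libraries of different culture classes, so lack of pairing cannot be told from different class. Of 19 libraries 9 correlated best with a library of their own number. In polyP against mutSOD1-ACM pairing by number cannot be told from shared culture class. The other 3 comparisons gave 0 calls under every setting run, the replicate block included.

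Of the named genes, each in the comparisons it is named for, those that turned direction were uncalled and close to 0, all with polyP against control. Members that are not named were not followed this way, and some of them also turned: with mutSOD1-ACM against control 44 of the 70 were below 0, but 30 under quantile normalization and 29 in set 2. Kcnab2 was -0.0828 with equal summed FPKM, -0.0479 with median-of-ratios scaling and -0.0310 in set 1. Kcnrg was -0.0041 with equal summed FPKM and -0.0926 in set 1, Kcnf1 was 0.0610 in set 1, and Kcnn2 was 0.00039 with quantile normalization and 0.00686 in set 2. Leaving out 1 library gave -0.0558 to 0.0183 for Kcnn2 and -0.0435 to 0.0998 for Kcnab2. FPKM without counts limits the precision of genes near 1 FPKM.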
